A study of Menidia menidia with 24 samples.

Results

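The transcripts described here had their highest mean level in Atlantic silverside larvae given the low oxygen and high CO2 treatment in neither generation. In these transcripts the other 3 groups lay close together. Counts were summed per gene, scaled with TMM factors (trimmed mean of M values) and expressed as log2 CPM (counts scaled to a common library size) with a prior count of 2. Among genes with a mean of at least 1 CPM, those whose HH, CH and HC means lay within 0.3 of each other were ranked by the smallest difference between the CC mean and any of these 3 means, here called the gap. The 150 genes with the largest gap were taken and 1 of them is not reported here, which left 149 members of 20210 genes, all of which passed the filter on low counts. The members were thus chosen by the same group means that define the comparisons, and the levels, fold changes and call counts between groups given below are descriptions. They are no evidence for the pattern itself.

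RNA was sequenced from 24 single whole larvae, 6 in each of 4 groups, all from wild adults and all sampled at 19 days post-fertilization. HH larvae had parents held under combined hypoxia and acidification (HypOA) and were themselves reared under HypOA. CH larvae had control parents and were reared under HypOA, HC larvae had HypOA parents and were reared under control conditions, and CC larvae had control parents and control rearing. The labels give rearing at 35% dissolved oxygen and 2500 µatm pCO2 for HypOA and at 100% and 600 µatm for the control, and the study's text gives somewhat different levels. Parents met HypOA at night before spawning, and their gametes were pooled within each parental treatment, so that parental treatment and parental pool cannot be told apart. The study describes HypOA-reared larvae as developing more slowly, so larvae of 1 age need not be of 1 stage. It also places 2 larvae in each of 3 rearing containers per treatment, but the labels do not say which, so p-values measure the spread between single larvae. In RNA of whole larvae, fewer cells of a type and less RNA per cell cannot be told apart.

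Several of the members with a gene symbol belong to the machinery that builds connective tissue. Collagen chains are hydroxylated and folded in the endoplasmic reticulum, leave it in coated vesicles and assemble outside the cell into fibrils and basement membranes. Fibroblasts and other matrix-producing cells carry most of this work in fish fins, skin and skeleton. Oxygen is a substrate of the prolyl hydroxylases that modify collagen. Other members encode giant proteins of the muscle sarcomere, junction proteins of epithelia and endothelia, and regulators of transcription. Symbols came from the readable rows of the study's own table, all of which concern transcripts that the study called in CH versus CC. The 28 members with a symbol were thus in that comparison before any value was looked up here, and the other 121 are given by identifier. Of 544 genes with a symbol that were lower in CH versus CC, 67 were in the gene list for extracellular matrix. Of the 28 members, 5 were. These counts were 42 and 2 for muscle, 41 and 3 for adhesion and 21 and 4 for secretion. They were 31 and 2 for immune genes and 33 and 2 for transcription. Whether the members differ from that pool was not tested.

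Counted reads per larva ranged from 11688851 to 16120500, and CC 1 was the deepest library. The share of reads on no annotated feature was 20.6 to 22% in HH larvae, 21 to 23% in CH larvae, 19.6 to 21.1% in HC larvae and 19.2 to 20.9% in CC larvae. The lowest shares were those of CC 2 (19.2%), CC 4 (19.5%) and CC 1 (19.6%, with HC 4 at the same value), which were also the CC larvae with the highest levels of the members, as given next. The highest share was that of CH 3 (23%), in which 7.88% of reads mapped to several sites, where the average over all larvae was 5.32%. The part of depth and of these read classes in the results was not tested.

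A score for each larva was taken as the mean over the 149 members of its log2 CPM minus the mean of the 18 HH, CH and HC larvae. It averaged -0.01±0.17 in HH larvae, -0.02±0.23 in CH larvae, 0.03±0.15 in HC larvae and 0.68±0.36 in CC larvae (mean±s.d., n=6 each). The highest of the 18 other larvae was CH 3 at 0.24 and the lowest CC larva was CC 3 at 0.28. The scores thus did not overlap, which the choice of members by these same larvae favours. The 6 CC larvae were far from alike, with CC 1 at 1.18, CC 2 at 1.02, CC 4 at 0.72, CC 6 at 0.50, CC 5 at 0.38 and CC 3 at 0.28. On the CPM scale the members together made up 2810±430 CPM in HH larvae, 2960±599 CPM in CH larvae, 2980±342 CPM in HC larvae and 4640±1240 CPM in CC larvae. Here CC 5, at 3421 CPM, and CC 3, at 3565 CPM, lay below the highest CH larva at 3576 CPM, so the sums overlapped.

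**Figure D1:**
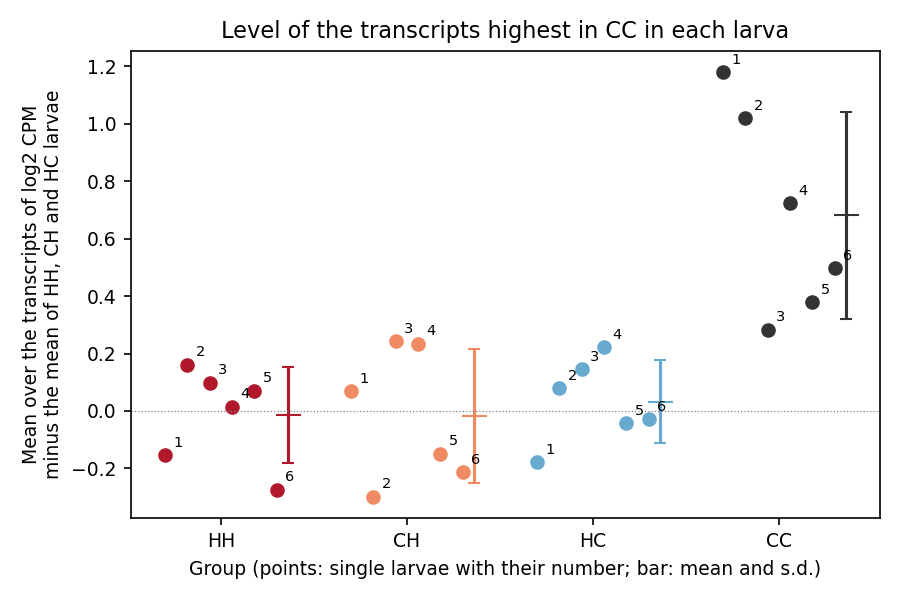
Mean log2 CPM over the 149 members in each larva, relative to the mean of the 18 HH, CH and HC larvae (vertical axis), by group, with the larva's number beside each point and the group mean and s.d. as a bar. All CC larvae lie above the other larvae, as the rule favours, from 0.28 in CC 3 to 1.18 in CC 1.

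The order of the CC larvae recurred from member to member. CC 1 lay above all 18 other larvae in 106 members, CC 2 in 96 and CC 4 in 76, whereas CC 5 did so in 25 and CC 3 and CC 6 in 24 each. The rule favours such counts, and the same counts over all genes are not given, so they describe the members only. CC 1, CC 2 and CC 4 held the 3 highest CC levels in 63 members (42.3%), against 10.5% of the 16527 genes with a mean of at least 1 CPM. This trio was picked after the values were seen, and its share is not a test. CC 1, CC 2 and CC 4 were also the most frequent trio over all those genes. CC 3, CC 5 and CC 6 came next, with 10.4% of those genes and 1.34% of the members. In 58 of those 63 members CC 3, CC 5 and CC 6 all lay within or below the range of the other larvae. No member had all 6 CC larvae above all 18 others, and neither did any of the 16527 genes (0%). In 54 members 3 CC larvae lay above all others, in 16 members 4 did, in 7 members 5 did and in 15 members none did. For these numbers, too, the shares over all genes are not given. All 6 CC larvae lay above the median of the other larvae in 59 members (39.6%), against 7.02% of the 16527 genes.

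**Figure D2:**
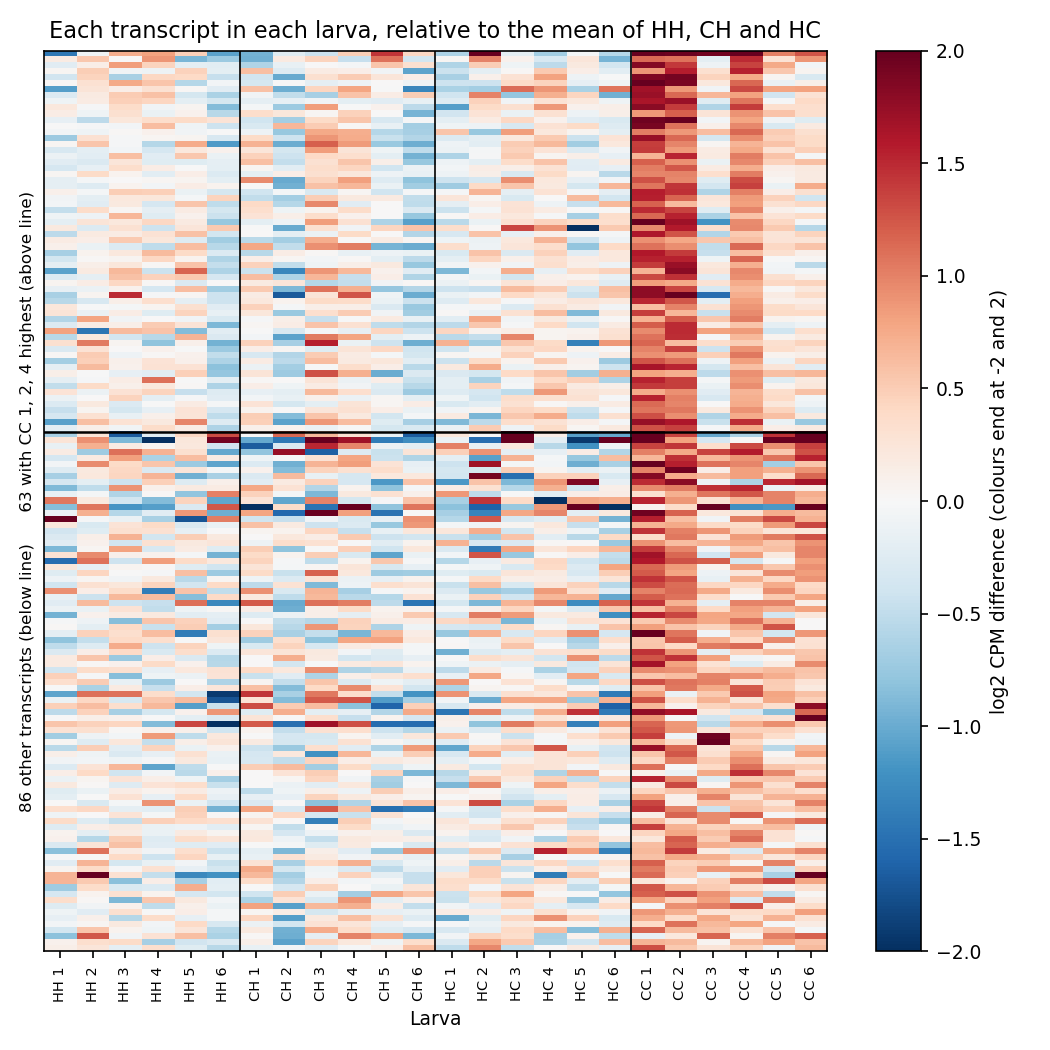
Difference in log2 CPM of each of the 149 members (lines) in each of the 24 larvae (columns, HH, CH, HC and CC) from the mean of the 18 HH, CH and HC larvae. The upper block holds the 63 members in which CC 1, CC 2 and CC 4 were the highest CC larvae, and the lower block the other 86.

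The extracellular matrix list held 5 members, and 4 of them followed the trio closely. COCA1 (mme09563), the alpha-1 chain of collagen XII that decorates collagen fibrils, was the most abundant matrix member. Its lowest, median and highest levels were 151, 236 and 306 CPM in HH larvae, 160, 228 and 251 CPM in CH larvae, 200, 260 and 309 CPM in HC larvae and 215, 374 and 670 CPM in CC larvae. CC 2 at 670 CPM, CC 1 at 668 CPM and CC 4 at 513 CPM stood well above every other larva, while CC 3, CC 5 and CC 6 at 215 to 235 CPM were in the middle of the other groups. The log2 fold change of COCA1 was -0.90±0.25 in HH versus CC, -0.95±0.25 in CH versus CC and -0.69±0.24 in HC versus CC (±s.e.).

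CO4A1 (mme08313) encodes the alpha-1 chain of collagen IV, the network-forming collagen of basement membranes. It ran from 17.5 to 31.1 CPM in HH larvae (median 23.1), from 19.1 to 21.2 CPM in CH larvae (median 19.8), from 18.7 to 30.7 CPM in HC larvae (median 23.6) and from 18.7 to 73.9 CPM in CC larvae (median 38.2). CC 2, CC 1 and CC 4 had 73.9, 69.3 and 47 CPM, and CC 3 was at the lowest HC level. The 6 CH larvae were the tightest group for this transcript. POSTN (mme04558), or periostin, a matricellular protein that binds collagen and integrins, was the last member inside the limit. Its lowest, median and highest levels were 113, 177 and 224 CPM in HH larvae, 136, 166 and 186 CPM in CH larvae, 157, 188 and 246 CPM in HC larvae and 170, 244 and 446 CPM in CC larvae. Again only CC 2, CC 1 and CC 4, at 446, 420 and 292 CPM, lay above all other larvae. MFAP2 (mme03265), a glycoprotein of elastic microfibrils, reached 29 CPM in HH larvae, 24.9 CPM in CH larvae, 32.3 CPM in HC larvae and 59.5 CPM in CC larvae, with CC 3, CC 5 and CC 6 at 20.2 to 25.8 CPM.

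COFA1 (mme12212), the alpha-1 chain of collagen XV, which sits where basement membranes meet the underlying tissue, was the matrix member with the broadest support among CC larvae. Its lowest, median and highest levels were 8.48, 12.2 and 14.1 CPM in HH larvae, 10.2, 11.5 and 15 CPM in CH larvae, 11, 13.6 and 16.3 CPM in HC larvae and 11.1, 21.7 and 33.9 CPM in CC larvae. In 5 CC larvae the level lay above all 18 others, and CC 3 at 11.1 CPM was near the bottom of their range. COFA1 had the lowest FDR of the members in HH versus CC (log2 fold change -0.91±0.19, edgeR quasi-likelihood FDR 0.00464).

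The list for the secretory pathway and protein folding held 4 members. FKB10 (mme12937), a peptidyl-prolyl isomerase of the endoplasmic reticulum that helps procollagen to fold, ranged from 12.4 to 20 CPM in HH larvae, 6.76 to 21.7 CPM in CH larvae, 10.5 to 20.4 CPM in HC larvae and 14.8 to 42.6 CPM in CC larvae. Its medians were 14, 14.5, 13.4 and 23.6 CPM in HH, CH, HC and CC larvae, and CC 2, CC 4 and CC 1 were the larvae above all others. P3H1 (mme06267), a prolyl 3-hydroxylase of collagen, had medians of 15.7 CPM in HH larvae, 15.8 CPM in CH larvae, 15 CPM in HC larvae and 21.6 CPM in CC larvae. The same 3 CC larvae exceeded its highest value elsewhere, 21.4 CPM in CH 1.

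TXND5 (mme11963), a protein disulfide isomerase, and SC31A (mme11664), a component of the outer coat of vesicles that leave the endoplasmic reticulum, had a different order among CC larvae. For both, the 3 highest CC larvae were CC 2, CC 3 and CC 4. TXND5 had medians of 37.8 CPM in HH larvae, 43.5 CPM in CH larvae, 51.8 CPM in HC larvae and 69.2 CPM in CC larvae. Of the CC larvae, CC 5 at 43 CPM and CC 6 at 55.3 CPM lay inside the other groups. SC31A ranged from 23.2 to 38.1 CPM in HH larvae, 22.2 to 35.3 CPM in CH larvae, 24.1 to 32.9 CPM in HC larvae and 28.4 to 61.2 CPM in CC larvae. Its log2 fold change was -0.50±0.16 in HH versus CC, -0.56±0.16 in CH versus CC and -0.56±0.16 in HC versus CC.

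**Figure D3:**
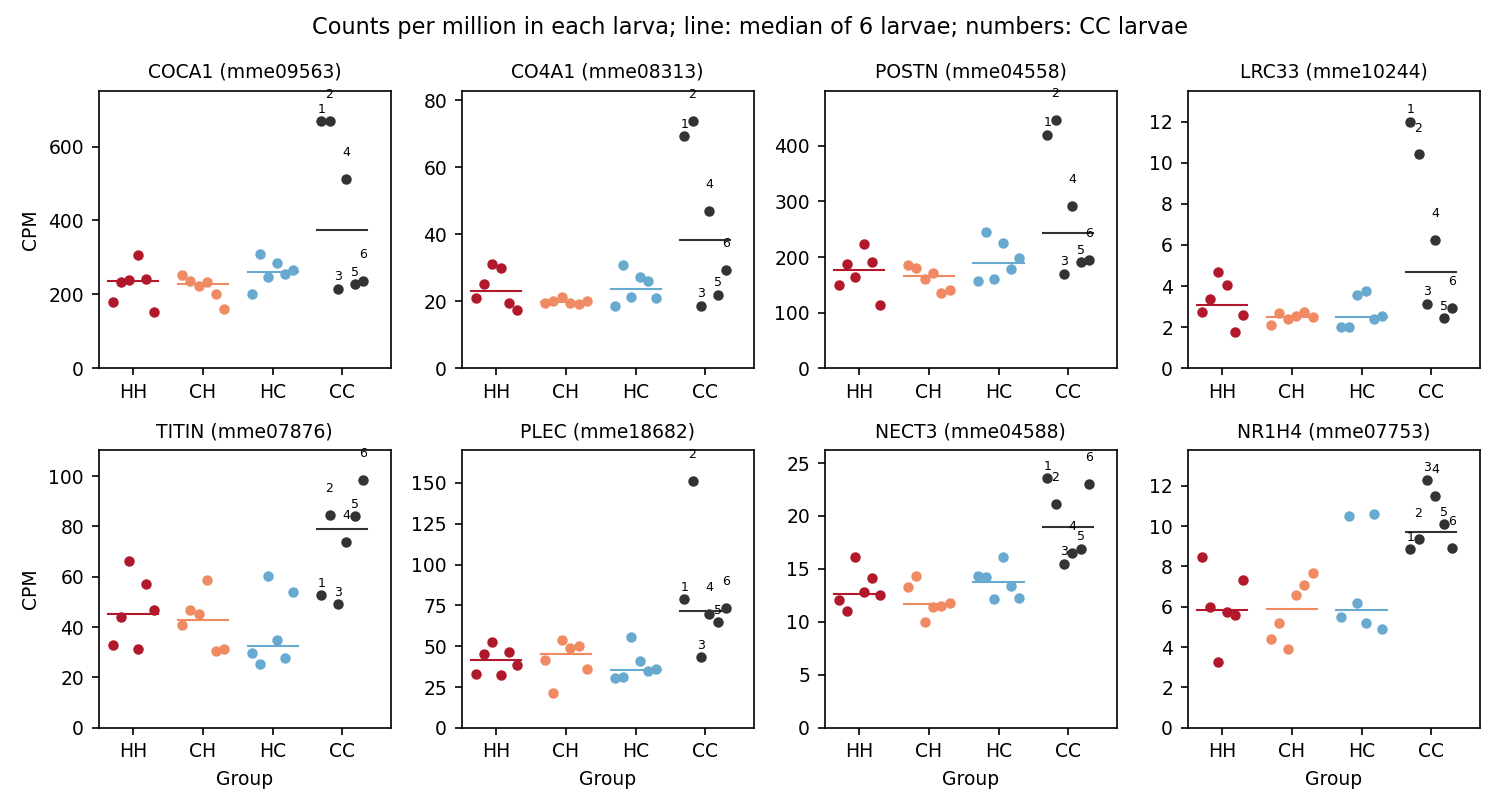
CPM of 8 members in each larva (vertical axes from 0) for HH, CH, HC and CC, with the median of 6 larvae as a line and the numbers of the CC larvae beside their points. In COCA1, CO4A1, POSTN and LRC33 only CC 1, CC 2 and CC 4 stand above the other groups, whereas in TITIN, PLEC, NECT3 and NR1H4 the CC larvae are raised in another order.

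The 2 members of the muscle and sarcomere list both carried the symbol TITIN, the giant protein that runs from Z-disc to M-line and acts as its molecular spring. The identifiers mme07875 and mme07876 are consecutive and may be pieces of 1 gene or close copies, so how reads divide between them is uncertain. For mme07876 the lowest, median and highest levels were 31.5, 45.4 and 66.1 CPM in HH larvae, 30.5, 43 and 58.7 CPM in CH larvae, 25.2, 32.3 and 60.3 CPM in HC larvae and 49.1, 78.9 and 98.5 CPM in CC larvae. CC 6 was highest at 98.5 CPM, followed by CC 2 and CC 5, and CC 1 was next to last at 52.7 CPM, unlike in the matrix members. For mme07875 the medians were 12.6, 10.9, 10.4 and 22.5 CPM in HH, CH, HC and CC larvae, and 4 CC larvae lay above all others. With CC 1 and CC 2 left out, the gap of mme07875 was 0.91 against 0.92 with all larvae, and that of mme07876 was 0.72 against 0.67.

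The list for cell adhesion and the actin cytoskeleton held 3 members. PLEC (mme18682), plectin, which ties intermediate filaments to junctions and other filaments, ranged from 32.1 to 52.6 CPM in HH larvae, 21.5 to 53.9 CPM in CH larvae, 30.8 to 55.4 CPM in HC larvae and 43.2 to 151 CPM in CC larvae. CC 2 alone was at 151 CPM, 4 further CC larvae at 64.5 to 78.7 CPM also lay above all others, and CC 3 at 43.2 CPM lay among them. NECT3 (mme04588), nectin-3, an adhesion molecule of adherens junctions, had medians of 12.7 CPM in HH larvae, 11.6 CPM in CH larvae, 13.8 CPM in HC larvae and 19 CPM in CC larvae. The levels of 5 CC larvae, from 16.5 to 23.6 CPM, lay above the highest other larvae at 16.1 CPM, and CC 3 at 15.5 CPM lay just under them. NECT3 had the lowest FDR of any member in CH versus CC (log2 fold change -0.69±0.13, edgeR quasi-likelihood FDR 0.0024). JAM3 (mme10777), a junctional adhesion molecule of endothelial and epithelial tight junctions, ranged from 9.25 to 15 CPM in HH larvae, 7.59 to 13.4 CPM in CH larvae, 9.51 to 13.6 CPM in HC larvae and 13.9 to 20.3 CPM in CC larvae. In JAM3, 4 CC larvae lay above all others and CC 3 was lowest of the CC group.

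The immune list held 2 members, as did the list for transcription and chromatin. LRC33 (mme10244), known in mammals as a protein of macrophages and microglia that holds latent TGF-beta at the cell surface, had medians of 3.07 CPM in HH larvae, 2.51 CPM in CH larvae, 2.47 CPM in HC larvae and 4.69 CPM in CC larvae. Its 3 highest larvae were CC 1 at 12 CPM, CC 2 at 10.4 CPM and CC 4 at 6.22 CPM, and no larva of another group passed 4.68 CPM. FYB1 (mme11332), in mammals an adaptor protein of T cells and platelets, had medians of 4.45 CPM in HH larvae, 3.92 CPM in CH larvae, 3.65 CPM in HC larvae and 5.6 CPM in CC larvae. Here CC 1, CC 2 and CC 5 lay above all others.

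HSF1 (mme02622), the main transcription factor of the heat shock response, had the largest gap of all members at 1.79 but was one of the weakest transcripts. Its lowest, median and highest levels were 0.0764, 0.569 and 0.932 CPM in HH larvae, 0.167, 0.518 and 1.51 CPM in CH larvae, 0.23, 0.325 and 2.32 CPM in HC larvae and 1.1, 2.24 and 4.08 CPM in CC larvae. CC 1 at 4.08 CPM and CC 4 at 3.31 CPM lay above all others, but HC 2 at 2.32 CPM exceeded 4 of the 6 CC larvae. These values rest on 1 to 14 reads in HH larvae, 2 to 21 in CH larvae, 3 to 28 in HC larvae and 13 to 70 in CC larvae. NR1H4 (mme07753), the nuclear receptor for bile acids, varied little within the CC group. It ranged from 3.27 to 8.48 CPM in HH larvae, 3.91 to 7.67 CPM in CH larvae, 4.89 to 10.6 CPM in HC larvae and 8.87 to 12.3 CPM in CC larvae. All CC larvae lay above every HH and CH larva, and HC 5 and HC 2, at 10.6 and 10.5 CPM, lay among them.

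The remaining 10 members with a symbol were in none of the lists and are named after their values were seen. They were INSC, PALM2, M10B1, PCD12, FRMD6, PAPS2, EPT1, FAT2, F120A and ESYT2, with gaps from 0.49 in ESYT2 to 0.65 in INSC. PCD12 and FAT2 are members of the cadherin superfamily of adhesion proteins, PAPS2 makes the sulfate donor used in cartilage proteoglycans, and EPT1 makes the membrane lipid phosphatidylethanolamine. Leaving out CC 1 and CC 2 gave PCD12 a gap of 0.12 against 0.56 with all larvae, whereas that of EPT1 was 0.52 against 0.51.

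Among the members without a symbol, the largest gaps were those of mme00920 and mme04486, both weak transcripts. The gap of mme00920 rested largely on CC 1 and was 0.65 without that larva. The transcript mme00920, with a gap of 1.39, was at 0 to 1.05 CPM in HH larvae, 0 to 0.924 CPM in CH larvae, 0.0752 to 1.86 CPM in HC larvae and 0.0852 to 16.7 CPM in CC larvae. CC 1 alone was at 16.7 CPM and the next larva, CC 6, at 2.4 CPM. Without CC 1 its log2 fold change was -1.27 in HH versus CC and -1.17 in CH versus CC, against -3.17±0.91 and -3.07±0.93 with all larvae. The transcript mme04486, with a gap of 1.29, spanned 0 to 4.27 CPM in HH larvae, 0.277 to 8.74 CPM in CH larvae, 0.15 to 6.37 CPM in HC larvae and 0.767 to 9.44 CPM in CC larvae, so that all groups overlapped widely. The other 7 of the 12 largest gaps without a symbol (mme19769, mme08559, mme17526, mme08606, mme10129, mme01803 and mme17306) had CC medians of 2.3 to 9.35 CPM, and none of them passed the test in any comparison. In mme17306 all CC larvae lay between 2.16 and 4.25 CPM, and only HH 6, HC 1 and CH 1 exceeded the lowest of them.

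The most abundant members besides COCA1 were mme10071 and mme06479. For mme10071 the medians were 242 CPM in HH larvae, 281 CPM in CH larvae, 275 CPM in HC larvae and 379 CPM in CC larvae, and CC 4 and CC 3, at 601 and 560 CPM, were the larvae above all others. For mme06479 they were 226, 323, 222 and 386 CPM in HH, CH, HC and CC larvae, and CC 4, CC 3 and CC 2 were highest. CC 1 was below all 3 of these in mme06479 and below CC 4 and CC 3 in mme10071. Over all members the mean level had a median of 7.79 CPM (range 1.02 to 318), against 14.3 CPM over the 16527 genes. At the limit, the last members inside were mme14186, mme06549 and POSTN with gaps of 0.4658, 0.4656 and 0.465, and the first genes outside were mme17570, mme12253 and mme17105 with 0.4628, 0.4621 and 0.4619. The limit thus fell at no break in the gaps.

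The rule fixed the order of the mean log2 CPM, and in the fit across all 17262 genes tested the fold changes against CC were negative in every member, except mme18983 in HC versus CC. That member had a log2 fold change of 0.22±1.12 there, with 0.524 to 76.8 CPM in HC larvae and 1.02 to 36.3 CPM in CC larvae. The median log2 fold change over the members was -0.71 in HH versus CC, -0.71 in CH versus CC and -0.63 in HC versus CC, beside -0.0223, -0.00637 and -0.00427 over all genes tested. At an FDR of 0.05, 39 members (26.2%) were lower in HH versus CC, where 3.59% of all genes tested were lower, and 41 members (27.5%) were lower in CH versus CC, where the share was 4.26%. The comparisons share the CC larvae, and 25 members passed in both. In HC versus CC no member passed and no gene at all did (0%), with 100 members and 2275 of all genes at an unadjusted p below 0.05. In that comparison the lowest FDR of a member was 0.128, DESeq2 called 14 members lower, where 0.406% of all genes tested were lower, and limma-voom none. Between HH, CH and HC no member passed (0 of 149 in edgeR, DESeq2 and limma-voom, and 0 at an unadjusted p below 0.05 in edgeR), as the rule favours, where 0.301% of all genes tested passed in at least 1 of these comparisons. The interaction of parental and offspring treatment passed for no member and no gene (0%) in edgeR, with 43 members and 1845 of all genes (10.7%) at an unadjusted p below 0.05, no member called by DESeq2 (4 of all genes) and none by limma-voom. Passing in CH or HH versus CC and not in HC versus CC is therefore no shown difference between these responses.

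The counts of members called moved with single CC larvae. The share of all genes called with 1 larva left out is not given. A general shift in calls therefore cannot be told apart from one in the members. Without CC 1 the count of members called was 18 in HH versus CC and 17 in CH versus CC, without CC 2 it was 15 and 16, and without CC 4 it was 17 and 22. It was 57 in HH versus CC and 63 in CH versus CC without CC 5, and 52 and 63 without CC 3. Counts in HH versus CC also moved to 15 without HH 6 and 16 without HH 1, and those in CH versus CC to 20 without CH 1, 23 without CH 6, 25 without CH 5 and 27 without CH 2. Single calls were followed for the 31 members named by the choices listed under the processing. Of these, COFA1 and NECT3 kept both calls with any larva left out. PLEC and HSF1 kept theirs in HH versus CC, but narrowly, with highest edgeR quasi-likelihood FDRs of 0.0473 and 0.0495. CO4A1 and JAM3 kept theirs in CH versus CC. PLEC lost its call in CH versus CC without CC 2 (edgeR quasi-likelihood FDR 0.058), as COCA1, POSTN and MFAP2 did without CC 1 or CC 2. Each other call of these 31 members was lost with at least 1 larva left out. The members with a symbol in none of the lists were not among those followed.

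With CC 1 and CC 2 both left out, a comparison chosen after the data were seen, the median gap of the members was 0.36 against 0.54 with all larvae. It was above 0.3 in 95 members and at or below 0 in 5. In this setting 5 members were called in HH versus CC (PALM2, EPT1, mme05920, mme16023 and mme18666) and 1 in CH versus CC, NECT3, while 1.84% and 0.557% of all genes tested were lower in these comparisons. In this setting the gap was 0.10 in MFAP2, 0.11 in COCA1, 0.11 in POSTN, 0.17 in LRC33 and 0.21 in CO4A1, and 0.35 in COFA1, 0.37 in NECT3, 0.39 in P3H1, 0.41 in JAM3, 0.515 in FKB10, 0.60 in PLEC, 0.64 in NR1H4 and 1.56 in HSF1. HSF1, JAM3, FKB10 and P3H1 had CC 1, CC 2 and CC 4 as their highest CC larvae, as the first 5 did, so that order alone did not go with a small gap.

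**Figure D4:**
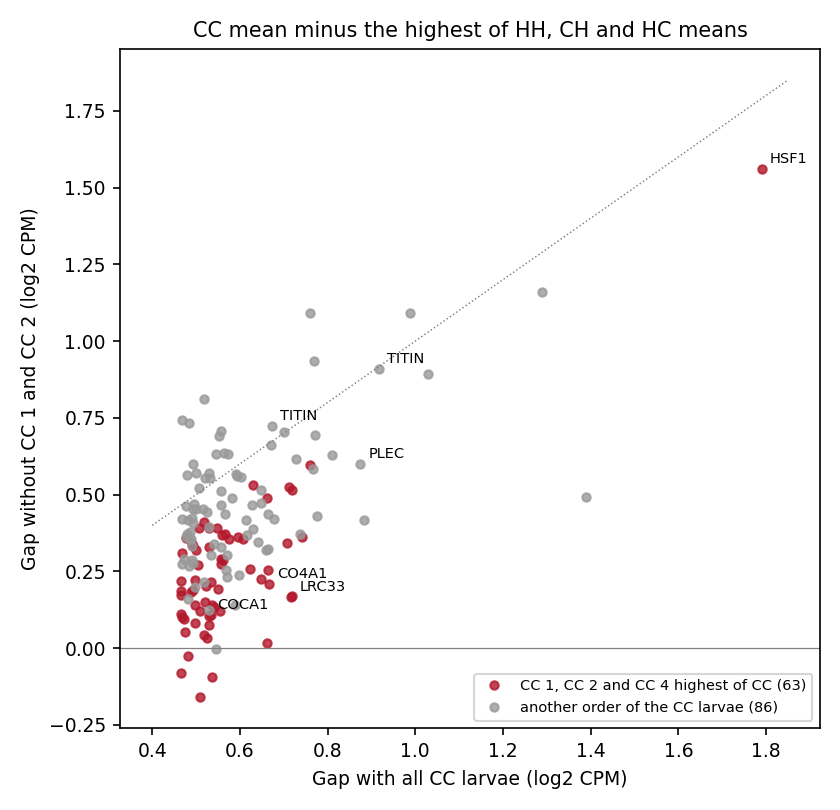
Gap of each member with all CC larvae (horizontal axis, log2 CPM) and with CC 1 and CC 2 left out (vertical axis), with a dotted line where both are equal. Members in which CC 1, CC 2 and CC 4 were the highest CC larvae (63, in red) are drawn in another colour than the other 86 (grey). The order by which the red points were picked favours a smaller gap without CC 1 and CC 2, and 5 members lie at or below 0.

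The members also varied more within each group than other genes did. The median within-group s.d. of log2 CPM was 0.40 in HH larvae, 0.50 in CH larvae, 0.44 in HC larvae and 0.58 in CC larvae for the members, and 0.25, 0.31, 0.27 and 0.32 in the same groups over the 16527 genes. The CC group had the largest s.d. in 65 members (43.6%), against 35.8% of all those genes. The rule favours genes with variable levels, since a few high CC larvae can raise the CC mean. These values are thus descriptions. The members had the lower mean levels given above, and the part of low counts in their spread was not tested.

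The same rule with the groups exchanged shows how far other groups gave the same pattern. The gap at rank 150 was 0.32 with HH as the highest group, 0.36 with CH, 0.24 with HC and 0.46 with CC. With the lowest group in its place it was 0.30 for HH, 0.47 for CH, 0.23 for HC and 0.46 for CC. Genes with a gap above 0.3 numbered 175 for HH, 267 for CH, 89 for HC and 474 for CC as the highest group, and 143, 503, 77 and 532 for the same groups as the lowest. Genes with CC or CH lowest and the others level were thus somewhat more numerous than those with CC highest. The pools differed in size, since 8264 genes were level in the other 3 groups for HH, 9013 for CH, 7330 for HC and 9563 for CC. The median within-group s.d. over all genes, given above, was also larger in CC and CH larvae than in HC and HH larvae. Its part in the gaps was not tested, and no test of these differences was made.

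**Figure D5:**
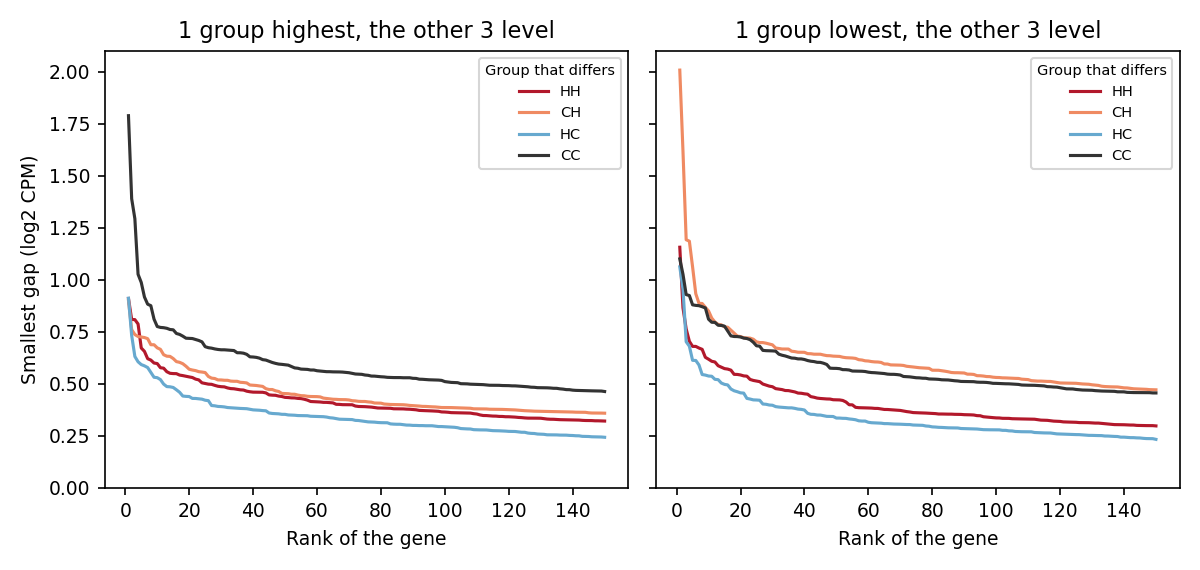
Gap by rank for the 150 leading genes when each group in turn is the highest (left) or the lowest (right) and the other 3 lie within 0.3 of each other, in log2 CPM. As the highest group CC leads throughout and ends at 0.46; as the lowest group CH and CC end close together at 0.47 and 0.46.

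The wider lists to which the members belong were taken from symbols of the study's CH versus CC transcripts. Their counts in that comparison are therefore not independent evidence. HH versus CC uses the same CC larvae, so the counts there are not independent evidence either. Over all genes tested, 3.59% were lower and 5.21% higher in HH versus CC, and 4.26% and 4.99% in CH versus CC. Of 78 extracellular matrix genes, 41 were lower and 5 higher in HH versus CC, and 67 were lower and 11 higher in CH versus CC. The secretory list had 9 of 21 genes lower in HH versus CC and 21 in CH versus CC, the muscle list 12 and 42 of 43, the adhesion list 16 and 41 of 42, the transcription list 13 and 33 of 33, and the immune list 4 and 31 of 32. None of these genes passed in HC versus CC, where no gene of the 17262 tested did (0%). Most genes of these lists were not members, since the members made up 5 of the 78 matrix genes and 4 of the 21 secretory genes.

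List scores, computed as for the members, placed the CC larvae in a similar order for the matrix, whose list includes the 5 matrix members. All list genes came from the study's CH versus CC transcripts, a choice that favours CC scores apart from the other groups. The scores are thus descriptions. The matrix score was -0.37 to 0.26 in HH larvae, -0.38 to 0.01 in CH larvae, -0.08 to 0.39 in HC larvae and -0.13 to 1.24 in CC larvae, with CC 1 at 1.24, CC 2 at 1.16, CC 4 at 0.78 and CC 3 lowest. The immune score was highest in the same CC 1 (1.39) and CC 2 (1.11), and the muscle score in CC 4 (0.92). Digestive enzymes, secreted mainly by the exocrine pancreas and none of them members, had scores of -1.07 to -0.13 in HH larvae, -1.49 to 0.53 in CH larvae, -0.45 to 2.77 in HC larvae and 0.06 to 5.98 in CC larvae, with CC 1 highest and CC 4 lowest of CC. Neuronal and synaptic genes, also without a member, had scores of -0.05 to 0.36 in HH larvae, -0.07 to 0.24 in CH larvae, -0.30 to 0.01 in HC larvae and -0.72 to -0.23 in CC larvae, and the lowest were CC 2, CC 1 and CC 4. Erythroid genes ranged from 0.14 to 0.89 in HH larvae, -0.15 to 1.32 in CH larvae, -1.53 to -0.60 in HC larvae and -2.09 to -0.69 in CC larvae. All genes of these lists passed the filter on low counts. The part of tissue makeup or stage in the members' levels was not tested.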

How the data were processed

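The authors trimmed the reads (Fastp in the study's methods, Trimmomatic in the submitters' processing notes), aligned them with STAR 2.6.1d and deposited raw counts per transcript made with HTSeq 0.11.1. Counting options for strand and overlap were not stated, so overlapping genes and close copies are uncertain. On average 20.8% of reads fell on no feature, 0.563% were ambiguous and 5.32% mapped to several sites, and these classes stayed out of all sums.

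The 20651 entries were summed to 20210 genes. The analysis ran in R 4.3.3 with edgeR 4.0.16 (filterByExpr with groups, minimum count 10, minimum total 15, TMM factors of 0.858 to 1.18, legacy glmQLFit and glmQLFTest, Benjamini-Hochberg FDR 0.05 over 17262 genes), with all 24 larvae in 1 fit and a coefficient per group, as in the study. The standard error is the fold change divided by the square root of F. DESeq2 1.42.0 and limma 3.58.1 (voom) were alternatives, with other scaling, filters, fits and settings of the rule, a replicate block and each larva left out. Total counts per larva were 11688851 to 16120500.

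No 2 larvae of a group agreed within sampling noise (lowest chi-square, divided by its degrees of freedom, 12.7). Members, gene lists and tests were chosen with earlier results of these data known. Named were the 12 members with the largest gap, up to 6 members of each list, the 3 most abundant and those next to the limit. The lists covered extracellular matrix, muscle, adhesion, digestive enzymes, catabolism in mitochondria, immune cells, secretion, growth signalling, ubiquitin, transcription, globins and neurons. The lists for catabolism, growth signalling and ubiquitin held no member. Of their 38, 27 and 18 genes, 18, 4 and 2 were lower in HH versus CC and 36, 26 and 15 in CH versus CC. Genes of these lists came from the same CH versus CC transcripts, so these counts are not independent evidence either. The rule and fit were tested on simulated counts of 17262 genes, with 200 raised 2-fold in CC and the same coefficient of variation (0.248) throughout. The test recovered 82%, 84% and 82% of these 200 in HH, CH and HC versus CC, with 0 calls in unchanged data. The 150 genes that the rule took held 129 of them. The members' median s.d. of log2 CPM was 0.58 in CC larvae. Their median log2 fold changes were below 2-fold, at -0.71, -0.71 and -0.63 in the same comparisons. The simulated shares thus do not give the power for the members, including in HC versus CC, where none passed. Some items are not reported here.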

Additional observations from a re-analysis of the deposited data

Results flagged for a closer look

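Among named members 4 values stood apart from the other 5 larvae of their group by Dixon's criterion, out of 128 groups of 6 examined (31 named members and the mean score over all members, each in 4 groups), where chance gives about 1 in 20 groups. HSF1 (mme02622) had a log2 CPM of 1.31 in HC 2, above the other HC larvae. In the same larva the transcript mme17526 had 1.96, also high. The transcript mme17306 was low in CH 3 at -0.00523, and TXND5 (mme11963) was low in HC 6 at 4.68.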

How the results depend on the processing

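DESeq2 called 68 members in HH versus CC, 65 in CH versus CC and 14 in HC versus CC, where 5.63%, 6.08% and 0.406% of all genes tested were lower. With only the groups compared in the fit the counts were 25 in HH versus CC and 11 in CH versus CC (2.52% and 1.47% of all genes). Without CC 1 and CC 2 together, added after the data were seen, 5 and 1 were called (1.84% and 0.557% of all genes lower) and the rule found 63 members again. With each larva left out, the counts ranged from 15 to 57 in HH versus CC and from 16 to 63 in CH versus CC, and the rule found 99 to 130 members again. The share of all genes called in those runs is not given. With a replicate block the counts were 28 in HH versus CC, 35 in CH versus CC and 0 in HC versus CC (2.65%, 3.2% and 0% of all genes). Larvae with the same number showed little correlation: 5 of 36 same-numbered pairs correlated above 0.1. Only 1 of 24 larvae correlated best with its own number. These correlations cannot show whether the numbers follow rearing containers. The rule found 90 members again with a tolerance of 0.2, 56 with group medians and 92 with a minimum of 5 CPM, which by construction are the members at or above it. RLE factors, limma-voom, no filter and the newer quasi-likelihood form kept the counts in HH versus CC at 30 to 47 and those in CH versus CC at 33 to 47. In these runs 3.04 to 4.11% of all genes were lower in HH versus CC and 3.43 to 4.6% in CH versus CC. The counts of 0 in the interaction and among HH, CH and HC stayed at 0 in each alternative run. No fold change against CC reversed in the 31 named members followed. Depth limits the weak members: 27 had a mean of at most 2 CPM.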
